A study of Mus musculus with 8 samples.

Results

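Fabp1, Slc27a2, Slc27a5, Acsm1, Baat, Ppara and Lipc are genes of fatty acid and bile acid handling that are best known from the liver, and here they were measured in white fat. The 7 genes were taken by symbol from the 18691 genes in the files. They were chosen by their FPKM and its difference between the 2 genotypes in these same 8 libraries, so that difference is described and not tested. The study sequenced polyadenylated RNA of epididymal white adipose tissue, taken at 16 weeks from C57BL/6J mice. One group of 4 libraries was labelled as Mrp4 knockout (Mrp4-/-) and the other group of 4 as wild type (WT). Replicates were numbered 1, 2, 4 and 5 in the knockout group and 1, 2, 3 and 4 in WT, and whether every library stands for its own mouse is not stated in the labels. P-values therefore measure only the spread between these libraries. The labels do not describe how the allele was made or which tissues carry it. Each library held 14064681 to 14700114 expected counts, and levels are given as FPKM, fragments per unit of transcript length and of library size.

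Mrp4 is an ABC-family efflux pump for cyclic AMP, prostaglandins and, in the liver, bile acid conjugates, and it is encoded by Abcc4. Abcc4 stood at 3.54, 3.68, 3.89 and 3.31 FPKM in the libraries labelled knockout, against 3.59, 3.33, 3.81 and 3.33 FPKM in WT. The groups overlapped, with a log2 fold change of -0.05 ± 0.08 (SE; edgeR quasi-likelihood test, adjusted p = 0.692). An exact two-sided permutation test gave p = 0.571, where 4 against 4 libraries allow no p below 0.0286. The transcript level did not separate the groups, so every direction given here is that of libraries labelled knockout over WT. Gene-level values cannot tell an intact Abcc4 transcript from one that lacks exons.

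In hepatocytes, long-chain fatty acids are taken up, bound by the liver fatty acid binding protein and joined to coenzyme A by acyl-CoA synthetases before they are oxidised or built into lipid. Bile acids made from cholesterol are likewise joined to coenzyme A and then coupled to taurine or glycine, which makes them soluble enough for secretion into bile. The nuclear receptor PPARα senses fatty acids and switches on genes of their oxidation. Hepatic lipase, made by hepatocytes, trims triglyceride and phospholipid from circulating lipoproteins. White adipocytes rely on other members of the same families, among them Fabp4, Slc27a1 and Pparg.

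The promoters of 3 of the 7 genes are shown because they stand for the different behaviours found here. Fabp1 had the highest level of the 7 genes in the libraries labelled knockout, Slc27a2 followed it, and Ppara was the gene whose groups overlapped. Each line gives the 250 bases before the annotated start, from RefSeq on GRCm38.p6, 5′ to 3′ on the gene's own strand. The submitters' notes name the build mm9, so these positions are not those of the deposited files. Capitals mark matches, on either strand, to AGGTCA (the nuclear receptor element), GTTAAT (one arm of the HNF1 element), TATAAA (the TATA box) or GGGCGG (the GC box).
Fabp1, chr6:71199629-71199878, plus strand: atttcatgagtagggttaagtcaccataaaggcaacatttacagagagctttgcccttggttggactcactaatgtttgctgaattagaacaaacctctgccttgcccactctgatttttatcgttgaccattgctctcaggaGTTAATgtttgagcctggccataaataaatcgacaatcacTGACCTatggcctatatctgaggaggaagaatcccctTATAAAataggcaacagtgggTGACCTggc
Slc27a2, chr2:126552774-126553023, plus strand: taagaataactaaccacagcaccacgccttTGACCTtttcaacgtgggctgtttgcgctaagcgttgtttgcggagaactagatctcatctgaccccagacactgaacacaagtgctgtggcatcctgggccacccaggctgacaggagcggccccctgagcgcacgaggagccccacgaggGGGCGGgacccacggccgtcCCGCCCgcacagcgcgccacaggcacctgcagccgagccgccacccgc
Ppara, chr15:85735526-85735775, plus strand: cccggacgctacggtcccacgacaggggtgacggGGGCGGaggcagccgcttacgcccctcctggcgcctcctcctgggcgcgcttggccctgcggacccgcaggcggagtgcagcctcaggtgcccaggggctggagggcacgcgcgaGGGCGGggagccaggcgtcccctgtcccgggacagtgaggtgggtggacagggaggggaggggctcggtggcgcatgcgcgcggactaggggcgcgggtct

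The 3 promoters differed in composition. The share of G and C was 42.8% for Fabp1, 64% for Slc27a2 and 76.4% for Ppara, beside a median of 52.4% over 32851 such windows. The Fabp1 window held 2 matches to AGGTCA, 67 and 9 bases before the start, with 1 match to GTTAAT and 1 to TATAAA. The Slc27a2 window held 1 match to AGGTCA and 2 to GGGCGG, and the Ppara window held 2 to GGGCGG and 0 to the other motifs. Acsm1 had 1 match to AGGTCA, and of the 2 windows listed for Lipc, the first had 0 matches to any of the motifs and the other had 2 to AGGTCA and 1 to GGGCGG. Of all windows, 14% held AGGTCA, 6.43% held GTTAAT, 12.4% held TATAAA and 32.7% held GGGCGG. The direct repeat DR1, AGGTCA given again after 1 base and so overlapping the single element, was in 0.0335% of windows and in 0 of those of these genes. A match describes letters in the window and is not shown to be a binding site. Windows for 5 of the 7 genes were found in the RefSeq table, and those of Slc27a5 and Baat are not used here.

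In 6 of the 7 genes every library labelled knockout lay above every WT library, and Ppara was the exception. The edgeR fit over all genes placed 6 of the 7 higher and 0 lower at an adjusted p under 0.05. Of the 14257 genes tested, 10.2% were higher by this rule, 8.05% were lower and 18.3% differed in either direction. Nothing is read from either count of these genes, since the contrast was used to choose them. The shares over all genes are of edgeR calls and give no background for groups that lie apart. All 7 passed the filter on low counts, but the 6 other than Ppara did so only through the libraries labelled knockout. In WT, Acsm1, Baat and Lipc had 0 to 3, 1 to 3 and 1 to 3 expected counts per library. Fabp1, Slc27a2 and Slc27a5 had 3 to 20, 8 to 16 and 5 to 26 there. In tissue RNA, more cells of a type and more RNA per cell cannot be told apart.

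Fabp1 (gene 14080, chromosome 6) encodes the liver fatty acid binding protein, a small cytosolic carrier of long-chain fatty acids and bile acids. It stood at 54.9, 100.3, 97 and 59.8 FPKM in knockout-labelled replicates 1, 2, 4 and 5, against 2.38, 1.44, 3.14 and 0.48 FPKM in WT replicates 1 to 4. The groups were far apart, and WT replicate 4 was the lowest of all. The means were 78 ± 24 FPKM in the libraries labelled knockout and 1.86 ± 1.15 FPKM in WT (SD, n = 4 each), with a log2 fold change of 5.32 ± 0.37 (SE).

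Slc27a2 (gene 26458, chromosome 2) encodes a fatty acid transport protein that also activates very long-chain fatty acids. Its levels were 3.93, 7.75, 11.8 and 4.61 FPKM in the knockout-labelled libraries, against 0.49, 0.31, 0.45 and 0.25 FPKM in WT. Replicate 4 of the knockout group was the highest, and the lowest library of that group still stood above all of WT. The group means were 7.01 ± 3.57 FPKM in libraries labelled knockout and 0.375 ± 0.114 FPKM in WT (SD, n = 4 each), a log2 fold change of 4.15 ± 0.43 (SE).

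Slc27a5 (gene 26459, chromosome 7), from the same family, encodes the bile acyl-CoA synthetase that activates bile acids on their return to the liver. Its levels were 2.35, 6.23, 5.54 and 3.94 FPKM in libraries labelled knockout and 0.78, 0.15, 0.33 and 0.27 FPKM in WT. WT replicate 1 was the highest of its group, and the log2 fold change of 3.47 ± 0.45 (SE) became 4.08 without it. The next step, coupling of the activated bile acid to an amino acid, is carried out by the enzyme that Baat (gene 12012, chromosome 4) encodes. Baat stood at 1.33, 2.1, 2.17 and 1.22 FPKM in knockout-labelled libraries, against 0.07, 0.07, 0.04 and 0.11 FPKM in WT. Its WT levels rest on 8 expected counts over the 4 libraries together, against 190.0 in the knockout group. Per unit of depth this was a ratio of 23.8, with an exact 95% binomial interval from 11.8 to 55.8 that covers counting error only. The log2 fold change of Baat was 4.42 ± 0.38 (SE).

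Acsm1 (gene 117147, chromosome 7) encodes a mitochondrial medium-chain acyl-CoA synthetase. It was at 0.86, 2.29, 1.91 and 1.14 FPKM in the knockout-labelled libraries, against 0.1 FPKM in WT replicate 1 and no listing in WT replicates 2, 3 and 4. The 3 counts in WT replicate 1 were the only ones in WT, and 3 counts are also the limit that a count of 0 allows. The ratio over the groups was 60 per unit of depth, with a 95% counting interval from 20.2 to 294. Without WT replicate 1 the level in the libraries labelled knockout was at least 44.9-fold higher, set against 3 counts over the remaining WT libraries together.

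Lipc (gene 15450, chromosome 9), which encodes hepatic lipase, was the lowest of the 7 genes in the libraries labelled knockout. It stood at 0.51, 0.76, 1.16 and 0.87 FPKM there and at 0.11, 0.11, 0.04 and 0.11 FPKM in WT. These values rest on 14 to 32 expected counts per library labelled knockout and 1 to 3 per WT library. The log2 fold change was 3.04 ± 0.41 (SE), the smallest of the 6 genes whose groups did not overlap.

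Ppara (gene 19013, chromosome 15), which encodes the nuclear receptor PPARα, behaved differently from the other 6. Its levels were 2.11, 2.43, 2.42 and 2.63 FPKM in libraries labelled knockout, against 3.23, 2.01, 2.34 and 2.43 FPKM in WT. The knockout-labelled libraries fell inside the range of WT. The means were 2.4 ± 0.215 FPKM in libraries labelled knockout and 2.5 ± 0.518 FPKM in WT (SD, n = 4 each), with a log2 fold change of -0.12 ± 0.15 (SE) and an interval of the fold from 0.75 to 1.12. With 210 to 341 expected counts in each library, Ppara was far better counted in WT than Baat, Acsm1 or Lipc.

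**Figure D1:**
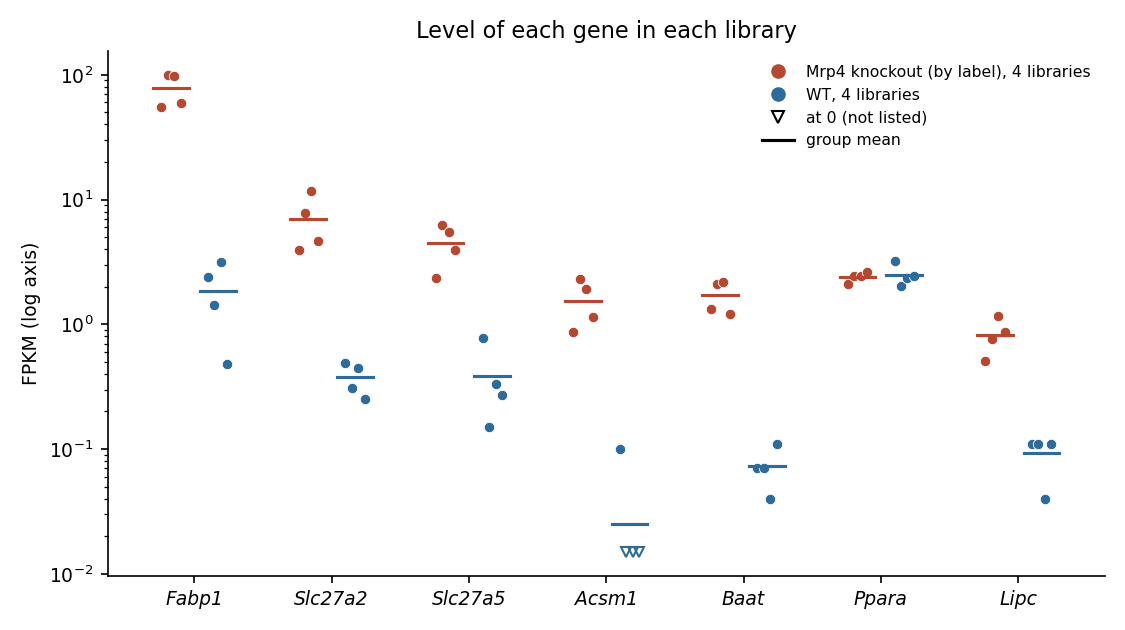
FPKM of each gene (log axis) in the 4 libraries labelled Mrp4 knockout and the 4 WT libraries; points are libraries, lines are group means and open triangles are libraries at 0. The groups are apart for 6 genes, and for Ppara the knockout-labelled libraries, at 2.11 to 2.63 FPKM, lie within the WT range of 2.01 to 3.23 FPKM.

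The order of the 7 levels differed between the groups. On the FPKM scale, which is per length, the libraries labelled knockout had Fabp1 first, then Slc27a2, Slc27a5, Ppara, Baat, Acsm1 and Lipc. Only Fabp1 stood clear of its neighbour there. The ranges of all other neighbours overlapped, although within a library each gene was above the next in 4 of 4 libraries except Baat over Acsm1, which held in 3 of 4. In WT, Ppara came first at 2.5 FPKM and Fabp1 followed at 1.86 FPKM. Ppara was above Fabp1 in 3 of 4 WT libraries, and their ranges overlapped. Slc27a5 and Slc27a2 came next at 0.383 and 0.375 FPKM, each above the other in 2 of the 4 libraries. Both were clear of Lipc, Baat and Acsm1, which lay at or below 0.11 FPKM in every WT library.

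Within the knockout group the 6 genes spread alike but not identically. Replicate 1 was the lowest library for Fabp1, Slc27a2, Slc27a5, Acsm1, Lipc and Ppara, and replicate 5 for Baat. Alb, the serum albumin gene and the most abundant hepatocyte marker, was also lowest in replicate 1, at 66.4% of its group mean. Replicates 2 and 4 held the 2 highest values of Fabp1, Slc27a2, Slc27a5, Acsm1 and Baat. Slc27a2 ranged from 56.1% to 168% of its mean, and its coefficient of variation of 51% was the widest of the 7. Ppara ranged from 88% to 110%, with a coefficient of variation of 8.96%.

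**Figure D2:**
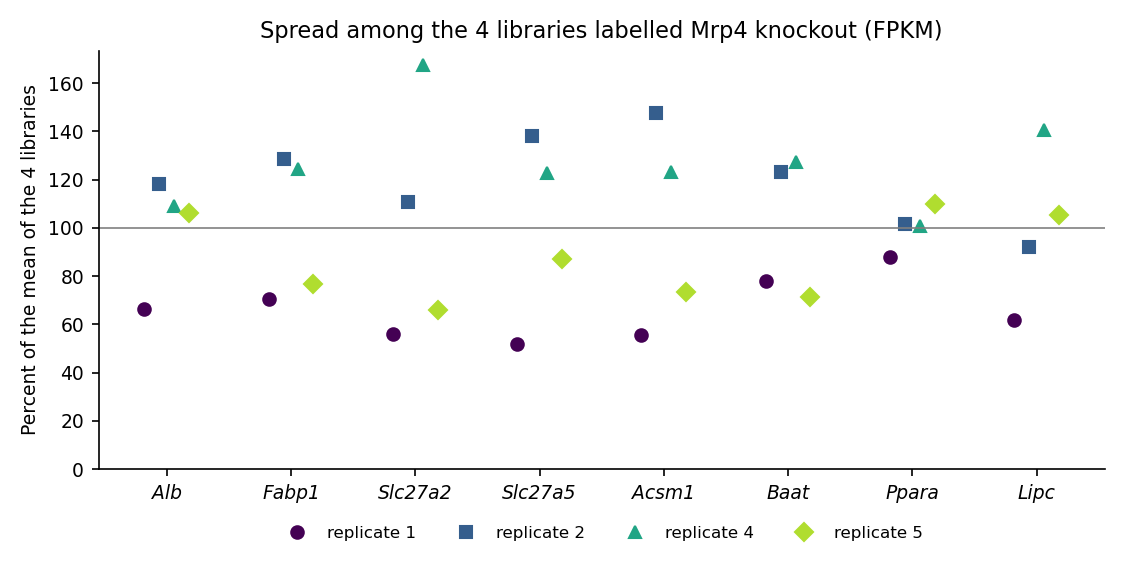
FPKM of Alb and of each of the 7 genes in the 4 libraries labelled Mrp4 knockout, as a percent of the gene's mean over those 4 libraries. Replicate 1 is lowest for all but Baat, and Ppara varies least, from 88% to 110%.

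Hepatocyte markers were higher in the same libraries. Of 22 such markers, 21 were tested and all 21 rose (edgeR, adjusted p under 0.05), with a median log2 fold change of 3.76 beside 0 over all tested genes. Their summed level was 866 to 1579 FPKM in libraries labelled knockout and 57.1 to 151 FPKM in WT, and 0 of the 22 were at 0 in a whole group. Alb stood at 309.98 to 553 FPKM in the knockout group, against 17.4 to 40.0 FPKM in WT (log2 fold change 4.10 ± 0.29, SE). The tested markers ran from 1.97 for Tdo2 to 4.52 for Apoa2 on the log2 scale. By point estimate, Lipc, Slc27a5, Slc27a2 and Baat lay within that range, Fabp1 and Acsm1 above it and Ppara below it. The estimate for Acsm1 rests on 3 expected counts in WT. Its approximate interval of the fold, 18.6 to 130, takes in the 23.0-fold change of Apoa2. The part of these hepatocyte transcripts in the levels of the 7 genes was not tested.

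Set against Alb in the same library, Slc27a2, Baat, Slc27a5 and Lipc overlapped between the groups, which for Slc27a5 was not so against Ttr. Slc27a2 was 1.48% ± 0.589 of the Alb level in libraries labelled knockout and 1.48% ± 0.303 in WT (SD, n = 4 each). Baat was 0.37% ± 0.086 in the knockout group and 0.319% ± 0.216 in WT, and the ranges overlapped as well. For Slc27a5 the values were 0.942% ± 0.193 in libraries labelled knockout and 1.39% ± 0.543 in WT, with overlapping ranges. Lipc was 0.176% ± 0.0379 of Alb in the knockout group and 0.388% ± 0.206 in WT. The WT ratios of Baat and Lipc rest on 1 to 3 expected counts per library, so counting error is large in them.

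Fabp1 and Acsm1 stood higher relative to Alb in the libraries labelled knockout, and Ppara far lower. Fabp1 was at 17.7%, 18.1%, 19.1% and 12% of Alb in knockout-labelled replicates 1, 2, 4 and 5, against 5.94%, 6.23%, 13.4% and 2.75% in WT replicates 1 to 4. The groups overlapped through WT replicate 3. Acsm1 was at 0.23% to 0.414% of Alb in the knockout group and at 0.25% in WT replicate 1, where it was listed. That value rests on 3 expected counts, the only ones in WT, so the difference for Acsm1 is weakly measured. Ppara was 0.531% ± 0.106 of Alb in libraries labelled knockout and 10.2% ± 2.63 in WT (SD, n = 4 each), and the ranges did not overlap. The other denominators gave further ranges that did not overlap. Against the summed hepatocyte markers, Fabp1 was at 5.99% ± 0.695 in libraries labelled knockout and 2.12% ± 1.30 in WT, and its ranges did not overlap, nor did those of Acsm1 and Ppara. Against Ttr, the transthyretin gene, Fabp1, Acsm1, Slc27a5 and Ppara did not overlap. Slc27a5 was at 6.48% ± 0.662 of Ttr in the knockout group and 11.4% ± 3.22 in WT. For Slc27a2 the ratio of the group means was 0.9995 against Alb, 1.20 against the marker sum and 0.773 against Ttr, and for Baat it was 1.16, 1.44 and 0.838. These ratios come from the contrast used to choose the genes and are given without a test.

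**Figure D3:**
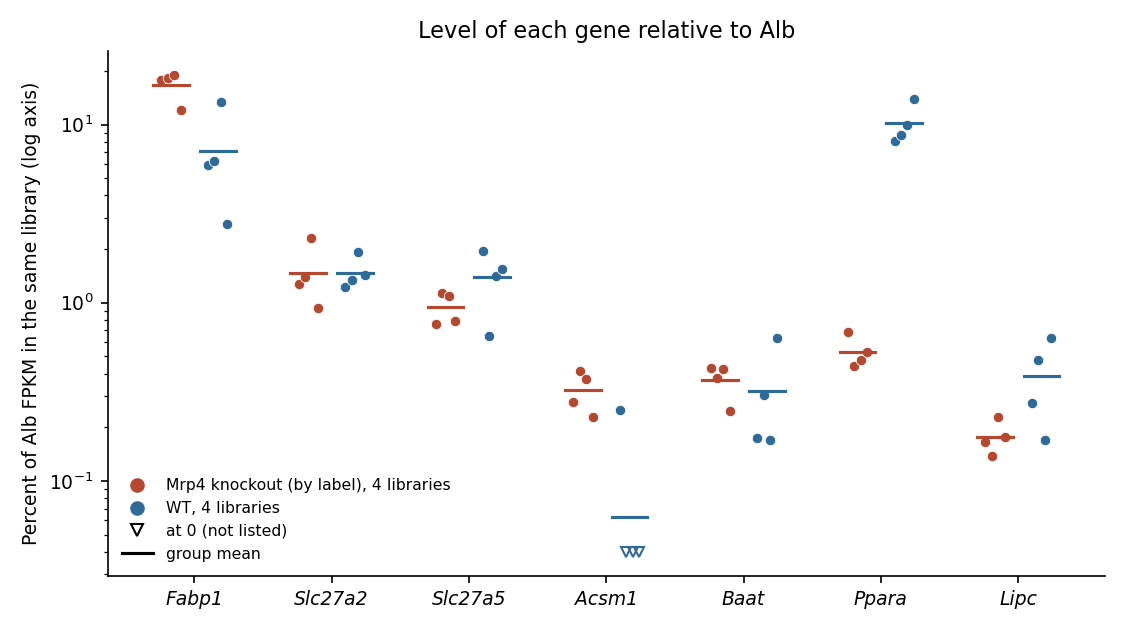
FPKM of each gene as a percent of Alb FPKM in the same library (log axis); points are libraries, lines group means and open triangles libraries at 0. The groups overlap for 6 genes, and Ppara lies at 0.44% to 0.681% in libraries labelled knockout and at 8.06% to 13.9% in WT.

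Markers of other cell types moved less, or in few members. Of 12 adipocyte markers, all tested, 1 rose (Lep), 3 fell (Plin1, Cfd and Retn) and 8 did not pass, with a median log2 fold change of -0.13. Their summed level was 23950 to 28680 FPKM in libraries labelled knockout and 29630 to 33660 FPKM in WT. Cfd weighs heavily in these sums, at 3466 ± 1452 FPKM in the knockout group and 9813 ± 2510 FPKM in WT. Fabp4, the largest by mean, was at 11970 ± 1891 FPKM in the knockout group and 10600 ± 1513 FPKM in WT and did not pass. Of 10 brown adipocyte markers, 7 were tested and 1 rose, Elovl3, with sums of 35.4 to 67.8 FPKM in the knockout group and 34.8 to 71.8 FPKM in WT. Of 12 kidney tubule markers, 4 were tested and 0 were called by edgeR or DESeq2, with 1 higher at an unadjusted p under 0.05. The sums were 2.9 to 5.7 FPKM in libraries labelled knockout and 3.86 to 7.59 FPKM in WT. Of 12 intestinal markers, 2 were tested and Vil1 rose, with sums of 1.11 to 3.03 FPKM in libraries labelled knockout and 0.5 to 1.55 FPKM in WT. Of 10 exocrine pancreas markers, 2 were tested and both rose, with sums of 12.3 to 21.0 FPKM in the knockout group and 7.02 to 9.01 FPKM in WT. None of the 10 epididymis markers was tested, and their sum was 0.22 to 0.43 FPKM in libraries labelled knockout and 0.46 to 13.8 FPKM in WT. The upper WT value was almost all Crisp1, at 13.5 FPKM in 1 WT library that held 264 of its 281 counts in WT. Of the listed markers, those at 0 in every library of a group numbered 5 in the knockout group and 5 in WT for intestine, 4 and 3 for pancreas, 0 and 3 for kidney tubule and 5 and 5 for epididymis. Ucp1, which defines brown adipocytes, was at 0 to 0.04 FPKM in libraries labelled knockout and at 2.25, 0.09, 0 and 0.04 FPKM in WT replicates 1 to 4, so WT replicate 1 held 52 of its 55 counts in WT. The part of any of these cell types in the levels of the 7 genes was not tested.

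The genes whose profiles over the 8 libraries were most like those of the 7 were found by the root mean square difference of centred log2(FPKM + 0.1) values. Fabp1 was nearest to Apoc4, Cyp2c29 and Cyp3a11, at differences of 0.652 to 0.686. Slc27a2 was nearest to Slco1b2 at 0.21, then to Mug1 and Creb3l3. Slc27a5 was nearest to Apoc3 at 0.159, then to Serpina1a and Apob. Acsm1 was nearest to Serpina1d at 0.158, then to Serpina1b and Cyp3a25. Baat was nearest to Cideb at 0.218, then to Glyat, which encodes a glycine acyltransferase, and C8a. Lipc was nearest to Itih2 at 0.246, then to Ass1 and Proz. Both groups enter this measure, so it includes the difference between them, and for Acsm1 it includes the pseudocount in the 3 WT libraries at 0. For Ppara the nearest were Nudt7 at 0.0451, Mrpl32 and B3galt6. With a pseudocount of 1, 3 of these 21 nearest genes were named again.

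Within their families Fabp1, Slc27a2, Slc27a5 and Acsm1 were minor members in both groups. Fabp1 made up 0.657% ± 0.242 of the summed FPKM of 6 Fabp genes in libraries labelled knockout, against 0.0182% ± 0.0123 in WT (SD, n = 4 each). Fabp4, the adipocyte fatty acid binding protein gene, stood at 11970 ± 1891 FPKM in the knockout group and 10600.0 ± 1513 FPKM in WT and did not pass (edgeR adjusted p = 0.613). Fabp5 was at 123 ± 42.6 FPKM in libraries labelled knockout and 75.8 ± 13.2 FPKM in WT (adjusted p = 0.0961), and passed without knockout-labelled replicate 2 (log2 fold change 0.83). The intestinal gene Fabp2 was at 0.887 ± 0.586 FPKM in the knockout group and 0.055 ± 0.0714 FPKM in WT, and Fabp7 at 0.632 ± 0.167 FPKM in the knockout group and 0.195 ± 0.11 FPKM in WT. Fabp2, Fabp7 and Fabp3 were too low to be tested. Fabp3 was at 0.33 ± 0.298 FPKM in libraries labelled knockout and 0.365 ± 0.192 FPKM in WT.

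Slc27a2 and Slc27a5 together made up 6.41% ± 2.41 of the summed FPKM of 6 Slc27 genes in libraries labelled knockout and 0.449% ± 0.24 in WT (SD, n = 4 each). The other tested members of the family did not pass (edgeR). Slc27a1, the main family member of fat and muscle, was at 147 ± 25.6 FPKM in the knockout group and 154 ± 25.3 FPKM in WT (adjusted p = 0.593). Slc27a4 was at 14.8 ± 0.405 FPKM in libraries labelled knockout and 16.9 ± 3.09 FPKM in WT (adjusted p = 0.139). Slc27a3 was at 4.11 ± 0.121 FPKM in the knockout group and 3.19 ± 1.03 FPKM in WT (adjusted p = 0.328). Slc27a6 averaged 0.23 FPKM in the knockout group and 0.15 FPKM in WT and was not tested.

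The medium-chain synthetases moved apart. Acsm1 made up 12.9% ± 3.32 of the summed FPKM of 4 Acsm genes in libraries labelled knockout and 0.11% ± 0.22 in WT (SD, n = 4 each). Acsm3, a paralogue, fell to 4.62 ± 1.05 FPKM in the knockout group, against 14.9 ± 4.27 FPKM in WT (log2 fold change -1.76 ± 0.25, edgeR adjusted p = 0.00267). Acsm5 was at 5.51 ± 1.02 FPKM in libraries labelled knockout and 5.88 ± 1.31 FPKM in WT and did not pass (adjusted p = 0.577). Acsm2 averaged 0.0025 FPKM in the knockout group and 0.0075 FPKM in WT, below the filter. Ppara made up 2.2% ± 0.353 of the summed FPKM of the 3 PPAR genes in libraries labelled knockout and 2.31% ± 0.312 in WT. Pparg, the adipocyte receptor, was at 90.8 ± 13.9 FPKM in libraries labelled knockout and 89 ± 30.8 FPKM in WT (adjusted p = 0.936). Ppard was at 17.3 ± 1.36 FPKM in the knockout group and 18.9 ± 1.23 FPKM in WT (adjusted p = 0.087).

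**Figure D4:**
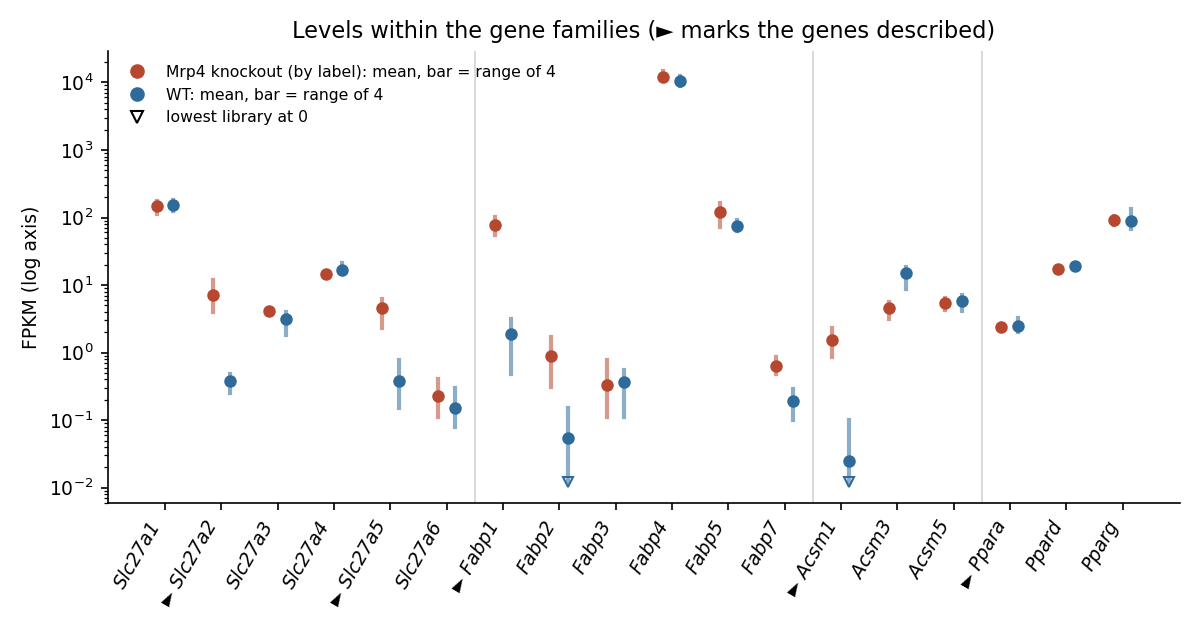
FPKM (log axis) of the Slc27, Fabp, Acsm and PPAR genes in libraries labelled Mrp4 knockout and in WT; points are group means, bars run from the lowest to the highest of 4 libraries, open triangles mark a lowest library at 0 and arrowheads the genes described here. Fabp4, Slc27a1 and Pparg are the highest of their families in both groups.

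The 6 pathway lists leave out the 7 genes themselves, so their counts are of other genes. Genes low in WT were tested only where the libraries labelled knockout carried them past the filter on low counts, which favours rises among them. Genes of bile acid transport and sensing included the largest share of rises among the 6 pathway lists. Of 20 genes, 13 were tested, 8 rose, 1 fell and 4 did not pass (edgeR, adjusted p under 0.05), with a median log2 fold change of 1.98 beside 0 over all tested genes. Slco1b2, an uptake carrier of the hepatocyte surface, rose to 3.23 ± 1.48 FPKM in libraries labelled knockout, against 0.113 ± 0.0492 FPKM in WT (4.76 ± 0.45, adjusted p = 0.000427). Slc10a1, the sodium-dependent taurocholate carrier, rose to 4.53 ± 1.51 FPKM in the knockout group, against 0.297 ± 0.25 FPKM in WT (adjusted p = 0.00213). The canalicular pumps Abcb11, which exports bile salts, and Abcc2 rose (3.83 and 3.35), as did the nuclear receptor gene Nr1i3 (1.98). Slco1b2 and Nr1i3 had 2 to 7 and 5 to 8 expected counts per WT library, and Slc10a1, Abcb11 and Abcc2 had 0 to 14, 2 to 14 and 3 to 13. All the rises named here passed the filter only through the libraries labelled knockout. The share of rises in this list and its median are therefore largely set by the filter, and nothing is read from them. Klb, the FGF coreceptor that adipocytes also make, fell to 16.8 ± 1.98 FPKM in libraries labelled knockout, against 25.2 ± 4.03 FPKM in WT (-0.65 ± 0.12, adjusted p = 0.0109). Klb was named after its value was seen. Without WT replicate 1 the log2 fold change of Slc10a1 was 4.51 in place of 3.88, and that of Abcb11 was 4.65. These rises were in the libraries where the hepatocyte markers were higher, whose part in them was not tested.

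In bile acid synthesis the genes were split. Of 19 genes, 16 were tested, 5 rose, 2 fell and 9 did not pass, with a median log2 fold change of 0.08. Akr1c6, a hydroxysteroid reductase gene, rose to 6.89 ± 1.94 FPKM in libraries labelled knockout, against 0.188 ± 0.0914 FPKM in WT (5.11 ± 0.34, adjusted p = 0.000127). With 2 to 6 expected counts per WT library, it passed the filter only through the libraries labelled knockout. Akr1d1 and Acox2 also rose, with 2 to 4 and 0 to 11 expected counts per WT library, and passed in the same way. The count of rises in this list is therefore partly set by the filter. Cyp8b1, the sterol 12-alpha-hydroxylase gene of cholic acid synthesis, rose to 3.14 ± 1.54 FPKM in the knockout group, against 0.71 ± 0.0983 FPKM in WT (2.07 ± 0.37, adjusted p = 0.00834). Acnat1, an acyltransferase gene related to Baat, rose less (0.52), and the call ended without knockout-labelled replicate 2 or 4 or WT replicate 1, 3 or 4. Hsd3b7, the C27 hydroxysteroid dehydrogenase gene, fell slightly (-0.30), but not without knockout-labelled replicate 1 or 5 or WT replicate 3. Ch25h, cholesterol 25-hydroxylase, fell (-1.28), a call that held only without WT replicate 2 or 4 when 1 library was left out. Without knockout-labelled replicate 4 or WT replicate 4, 3 genes of this list rose. Cyp7a1, the rate-limiting enzyme of bile acid synthesis, named for that role after its value was seen, was at 0.09 ± 0.0356 FPKM in libraries labelled knockout and 0.005 ± 0.01 FPKM in WT and was not tested.

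Among the other genes of fatty acid uptake, binding and activation, with Fabp1, Slc27a2, Slc27a5 and Acsm1 left out, most did not pass. Of 27 such genes, 20 were tested, 0 rose, 3 fell and 17 did not pass, with a median log2 fold change of -0.12; at an unadjusted p under 0.05, 2 were higher. DESeq2 called 1 higher, as did edgeR without knockout-labelled replicate 2. Beside Acsm3, Acss2, which activates acetate, fell to 31.4 ± 6.52 FPKM in the knockout group, against 135 ± 76 FPKM in WT (-2.17 ± 0.38, adjusted p = 0.00743). Acsf3, a mitochondrial malonyl-CoA synthetase gene, fell (-0.38).

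Of 31 PPARα target genes, 29 were tested, 6 rose, 2 fell and 21 did not pass, with a median log2 fold change of -0.05. The fatty acid omega-hydroxylase genes Cyp4a10, Cyp4a14 and Cyp4a12a rose, reaching 2.85 ± 1.08, 3.1 ± 1.22 and 2.36 ± 1.93 FPKM in libraries labelled knockout, against 0.025, 0.035 and 0.115 FPKM in WT. These genes are close copies that can share reads. In the order named they had 0 to 2, 0 to 3 and 2 to 5 expected counts per WT library. They passed the filter only through the libraries labelled knockout. Their log2 fold changes were 6.54, 6.26 and 4.33 in the order named, and became 7.47 for Cyp4a10 and 7.05 for Cyp4a14 without WT replicate 3, and 3.72 for Cyp4a12a without knockout-labelled replicate 4. Creb3l3, a membrane-bound transcription factor gene of liver and intestine, rose to 2.41 ± 1.03 FPKM in the knockout group, against 0.0975 ± 0.0512 FPKM in WT (4.47 ± 0.46, adjusted p = 0.000513). It had 1 to 5 expected counts per WT library and likewise passed the filter only through the knockout group. Acaa1b, a peroxisomal thiolase gene with a near copy in Acaa1a, rose (0.97). The 2 that fell, named after their values were seen, were Pex11a (-0.93), of peroxisome division, and Acadvl (-0.50), of mitochondrial oxidation. Neither passed without knockout-labelled replicate 1, 2 or 4 or WT replicate 4, and Acadvl did not without WT replicate 1 either.

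Of 17 PPAR receptors and partners, all tested, 0 rose, 5 fell and 12 did not pass (edgeR), with a median log2 fold change of -0.16. DESeq2 also called 0 higher, and 1 was higher at an unadjusted p under 0.05. The coactivator gene Ppargc1a fell to 0.655 ± 0.111 FPKM in libraries labelled knockout, against 1.26 ± 0.32 FPKM in WT (-1.02 ± 0.20, adjusted p = 0.0118). Nrip1, a corepressor gene, fell to 30.6 ± 1.71 FPKM in the knockout group, against 45.3 ± 6.34 FPKM in WT (adjusted p = 0.00506). Crebbp (-0.23), Ppargc1b (-1.04) and Lpin1 (-0.57) fell as well. Crebbp did not pass without any 1 of the 8 libraries, Ppargc1b held its call only without knockout-labelled replicate 1 or WT replicate 2, and Lpin1 only without knockout-labelled replicate 5 or WT replicate 2. With 1 library left out, 2 to 4 of the list fell: 2 without knockout-labelled replicate 2 or 4 or WT replicate 1, 3 or 4, and 3 without knockout-labelled replicate 1. Without WT replicate 2, 1 gene rose.

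Of 20 genes of lipases and lipoprotein remodelling, the setting of Lipc, 14 were tested, 4 rose, 1 fell and 9 did not pass, with a median log2 fold change of 0.01. Lcat, which esterifies cholesterol in plasma, rose to 6.5 ± 2.36 FPKM in the knockout group, against 2.37 ± 0.777 FPKM in WT (1.39 ± 0.30, adjusted p = 0.0168), a call that ended without WT replicate 4. Lipa, the lysosomal acid lipase gene, rose to 47.1 ± 5.73 FPKM in libraries labelled knockout, against 31.0 ± 2.03 FPKM in WT (0.54 ± 0.09, adjusted p = 0.00567). Vldlr, a lipoprotein receptor gene, rose (0.65), a call that held only without knockout-labelled replicate 2 or WT replicate 2. Lmf1, a lipase maturation factor gene, fell (-0.29), except without knockout-labelled replicate 1 or 5 or WT replicate 4. Without WT replicate 4, 2 genes of the list rose. Without WT replicate 2, 3 fell.

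The close paralogues of Lipc did not pass. Lpl, lipoprotein lipase, stood at 3020.0 ± 349 FPKM in libraries labelled knockout and 2720.0 ± 233 FPKM in WT (edgeR adjusted p = 0.691). Lipg, endothelial lipase, was at 0.53 ± 0.253 FPKM in the knockout group and 1.18 ± 0.433 FPKM in WT (-1.21 ± 0.39, adjusted p = 0.06), and passed without WT replicate 2 (-1.34).

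**Figure D5:**
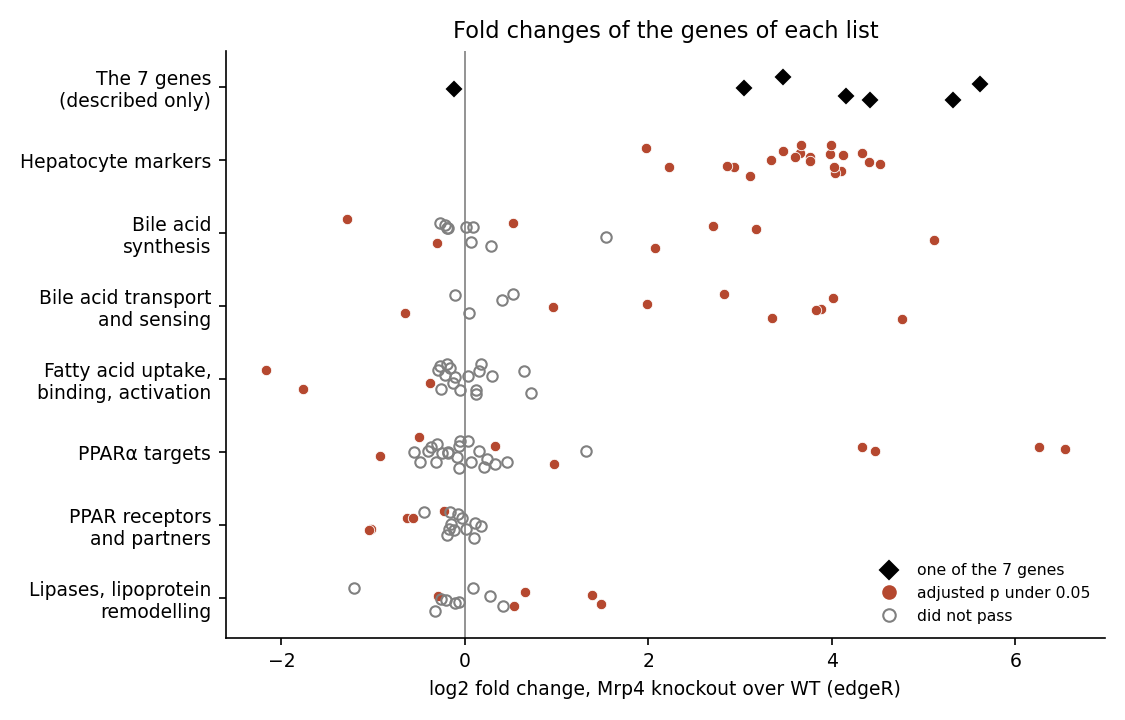
Log2 fold change, libraries labelled Mrp4 knockout over WT, of the 7 genes (diamonds, described only), the hepatocyte markers and the tested genes of the 6 pathway lists; filled circles passed an adjusted p under 0.05 and open circles did not. Hepatocyte markers lie between 1.97 and 4.52, and most genes of the fatty acid, PPARα target and lipase lists lie near 0.

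A few chosen Gene Ontology terms in the files were looked up, each held by 3 of the 7 genes. The annotation that the 7 genes share was not surveyed. These terms put Fabp1, Slc27a2 and Baat in the peroxisome, a term held by 53 of the 18691 genes. Slc27a2, Slc27a5 and Acsm1 carry the term for acid-thiol ligase activity, which 9 genes hold. Slc27a5, Acsm1 and Lipc carry fatty acid metabolic process (70 genes), and Slc27a2, Slc27a5 and Baat carry steroid biosynthetic process (63 genes). The transcript lengths listed ran from 492 bases for Fabp1 to 2336 bases for Slc27a5, and Ppara was longer, at 7273 bases over its 2 listed transcripts.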

How the data were processed

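Polyadenylated RNA was read as pairs of 100 bases on a BGISEQ-500, per the labels' protocols, and the submitters' processing notes name Bowtie2 and mm9. The quantifier, versions and use of strand: not given in the sources used here. The authors deposited expected counts and FPKM per gene; a gene not listed in a library was taken as 0. Expected counts were rounded and fitted in edgeR 4.0.16 (R 4.3.3; filterByExpr, TMM, quasi-likelihood, genotype alone, all 8 libraries), with Benjamini-Hochberg adjustment over 14257 genes and a threshold of 0.05; 4434 genes were filtered out. DESeq2 1.42.0 and limma 3.58.1 were alternatives. On simulated counts for 14142 genes, 76.6% of log2 changes of 1 and 96.8% of log2 changes of 2 were recovered, and 5.5% of calls were of unchanged genes. The 7 genes and all lists were chosen with earlier results of these data known. Genes named beside them were, per pathway list, the 5 lowest p among called genes reaching a mean of 1 FPKM in the higher group, the paralogues and the 3 nearest profiles per gene. Other names were chosen after their values were seen. Each SE of a log2 fold change is the size of that change divided by the square root of its quasi-likelihood F statistic. Intervals of a fold use this SE with a normal approximation, nominally at 95%, and are narrower than the test itself allows. Counting intervals are exact, at 95%, and cover counting error only, since reads carried no molecular identifiers. Some genes that the rule names are not reported here.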

Additional observations from a re-analysis of the deposited data

Results flagged for a closer look

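Acsm1 was at 0.1 FPKM in WT replicate 1 and at 0 in the other WT libraries. As a percent of Alb, Acsm1 was at 0.25% in the same library and at 0 in the others. The value rests on 3 expected counts. WT replicate 1 also had the highest Alb level of its group. Lipc was at 0.04 FPKM in WT replicate 3 and at 0.11 FPKM in each of the other WT libraries, a difference of 1 against 3 expected counts. These were picked out because 1 library differed while the rest of its group were tied. With ties any differing value is picked out, so this is no sign that the library is unusual, and the usual chance rate of 1 in 20 groups does not apply. In all, 30 groups were examined.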

How the results depend on the processing

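With genotype alone 1458 genes were higher and 1148 lower. Lower genes numbered 680 with library size alone, 691 with limma on log2(FPKM + 1) and 694 on log2(FPKM + 0.1), and higher genes were then 74.1%, 73.1% and 73% of calls, against 55.9%. The replicate numbers did not pair the libraries, since same-numbered libraries deviated with correlations of 0.02, -0.07 and -0.13 and none was closest to its own number. With the replicate block, 110 genes were higher and 31 lower. The block left 3 bile acid synthesis genes higher and 0 lower, 1 transport gene higher and 0 lower, 0 lower in each of the fatty acid, PPARα target and PPAR partner lists, and 1 lipase gene higher and 0 lower. In bile acid synthesis, 3 genes rose with a mean of at least 1 FPKM, and 1 fell with library size alone or limma on log2(FPKM + 1). In fatty acid uptake 1 rose with no filter or DESeq2. For PPARα targets 1 fell with either limma setting. For PPAR partners 2 fell with library size alone or limma on log2(FPKM + 1), and 3 with no filter or limma on log2(FPKM + 0.1). For lipases 4 fell with DESeq2. Of the nearest profiles 3 of 21 were named again with a pseudocount of 1. Leaving out 1 library gave 720 to 1977 higher and 452 to 1706 lower genes. It gave 3 to 6 higher and 0 to 3 lower in bile acid synthesis, 6 to 9 and 1 in transport, 0 to 1 and 3 to 4 in fatty acid uptake, 5 to 6 and 0 to 3 in PPARα targets, 0 to 1 and 2 to 4 in PPAR partners, and 2 to 4 and 0 to 3 in lipases. Abcc4 ranged from -0.09 to -0.01. Values near 0 that never passed changed sign. Abcc4, at -0.05, was 0.02 with library size alone, 0.03 and 0.04 with limma on log2(FPKM + 1) and log2(FPKM + 0.1) and 0.01 with the replicate block. Pparg, at -0.03, was 0.04, 0.07 and 0.07 under library size alone and those limma settings, and -0.13 to 0.24 without 1 library. With the block Lpl, at 0.09, was -0.06, and Fabp4, at 0.12, was just below 0. Ppara, at -0.12, was 0.03 without WT replicate 1. The causes were not tested. Low WT counts limit Acsm1, Baat and Lipc.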
